A study of Mus musculus with 3 samples.

Results

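Lysosomal hydrolases and lysosomal membrane proteins are described here through 32 genes, which were chosen by gene symbol out of the 55536 genes of the deposited tables, 22028 of them protein-coding. All 32 symbols were found, each with 1 gene identifier. The RNA came from the chromatin of bone-marrow-derived macrophages, primary cells that are grown in culture from mouse bone marrow, here of strain C57BL/6J. The cells had received 100 ng/ml of Lipid A, the membrane anchor of bacterial lipopolysaccharide and the ligand of the receptor TLR4, over 12 h. They then spent 12 h without it and met 100 ng/ml a second time, for the last 10 min. Total RNA was sequenced after depletion of ribosomal RNA, and RNA of the chromatin fraction is attached to chromatin, much of it still being made or spliced. All 3 libraries belong to this 1 condition, so no untreated, singly stimulated or whole-cell RNA was compared here and no change caused by Lipid A can be read from the values. The labels call the libraries biological replicates with separate biosamples and give them the same donor identifier, while age and sex were not collected. Spread between them is the only error available, and part of it may be technical.

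Lysosomes are acidic organelles in which macrophages digest what they engulf and what autophagy delivers. Soluble acid hydrolases take apart glycans, lipids and proteins there, mostly after delivery by mannose phosphate receptors, and heavily glycosylated membrane proteins line and connect the compartment. Many of the genes are known targets of TFEB and its relatives, basic helix-loop-helix leucine zipper factors that bind an E-box embedded in a motif named CLEAR (coordinated lysosomal expression and regulation). Inherited loss of most of these enzymes causes lysosomal storage disease in humans.

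The E-box was common among the promoters of these genes. RefSeq promoter windows of 300 bases (250 before to 50 after a start site, build GRCm38.p6, the assembly also called mm10) could be matched to 30 of the 32 genes, with 36 windows in all, and those of Asah1 and Npc1 were not matched. The core CACGTG, which reads the same on both strands, stood in a window of 10 of the 30 genes (33.3%), against 1516 of 16522 protein-coding genes with a RefSeq window (9.18%) and 7.15% of all 32851 windows. In each of the 10 genes (33.3% of the 30) at least 1 core had T before it on 1 of the strands, part of the flanks in the CLEAR motif. Of the 16522 protein-coding genes 851 had this (5.15%), out of the 1516 that held the core. T before and A after the same core was found in Cln3, Gla and Mcoln1, 3 of 30 genes (10.0%), against 1.45% of protein-coding genes. The full CLEAR letters GTCACGTGAC occurred in Cln3 alone, 1 of 30 (3.33%) against 0.49%. The longer motifs contain the shorter ones, so these counts overlap. Among 40 other lysosomal genes listed for comparison, 28 had a window and 4 of these held the core (14.3%), 3 with T before it on 1 of the strands (10.7%). T before and A after stood in 3 of the 28 (10.7%) and the CLEAR letters in 1 (3.57%), shares near those of the 30 genes.

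The stretches around the cores are shown because they hold the known regulatory letters, which these 10 genes carry and the other 20 matched genes lack in their windows. They come from RefSeq, build GRCm38.p6, and run 5′ to 3′ on the strand of the gene. Capitals mark the core together with the T before it or the A after it where present. Arsa, Gla, Lgmn, Cln3 and Sgsh lie on the minus strand and the others on the plus strand. Cln3 and Lgmn each have a second RefSeq start site farther upstream whose window holds no core.

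Lamp1, chr8:13159080-13159171: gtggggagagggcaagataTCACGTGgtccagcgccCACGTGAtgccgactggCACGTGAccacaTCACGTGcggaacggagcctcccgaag
Cln3, chr7:126583332-126583405: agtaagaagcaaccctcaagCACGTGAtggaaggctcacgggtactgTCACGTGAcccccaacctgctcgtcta
Mcoln1, chr8:3500428-3500499: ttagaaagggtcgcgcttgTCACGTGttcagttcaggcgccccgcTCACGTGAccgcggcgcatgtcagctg
Gla, chrX:134601174-134601252: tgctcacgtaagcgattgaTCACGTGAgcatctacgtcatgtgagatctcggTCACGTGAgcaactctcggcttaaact
Gaa, chr11:119267803-119267848: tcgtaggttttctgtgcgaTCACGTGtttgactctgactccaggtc
Sgsh, chr11:119355514-119355559: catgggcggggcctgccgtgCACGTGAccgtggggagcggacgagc
Naglu, chr11:101070001-101070046: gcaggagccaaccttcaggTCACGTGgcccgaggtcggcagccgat
Glb1, chr9:114401010-114401055: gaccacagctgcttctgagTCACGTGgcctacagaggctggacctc
Arsa, chr15:89477415-89477460: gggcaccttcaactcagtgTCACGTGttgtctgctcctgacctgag
Lgmn, chr12:102439116-102439161: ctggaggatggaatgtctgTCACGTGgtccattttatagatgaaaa

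Lamp1, which encodes the most used marker protein of the lysosomal membrane, had 4 cores, beginning 61, 45, 28 and 15 bases before its start site. Cln3, Gla and Mcoln1 had 2 cores each and the other genes had 1. The cores of Gla began 227 and 194 bases before the start and those of Cln3 149 and 121. The single cores of Gaa, Naglu, Lgmn, Glb1, Sgsh and Arsa began 140, 73, 49, 48, 29 and 16 bases before it. The core occurred at high and at low levels. The 10 genes that held it, among them Lgmn and Cln3 at 141 and 132 TPM, had a median of mean TPM of 13.4 (range 4.15 to 141), and the 20 matched genes without it had 47.3 (range 0.54 to 763). A letter match says nothing about whether a factor was bound in these cells.

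**Figure D1:**
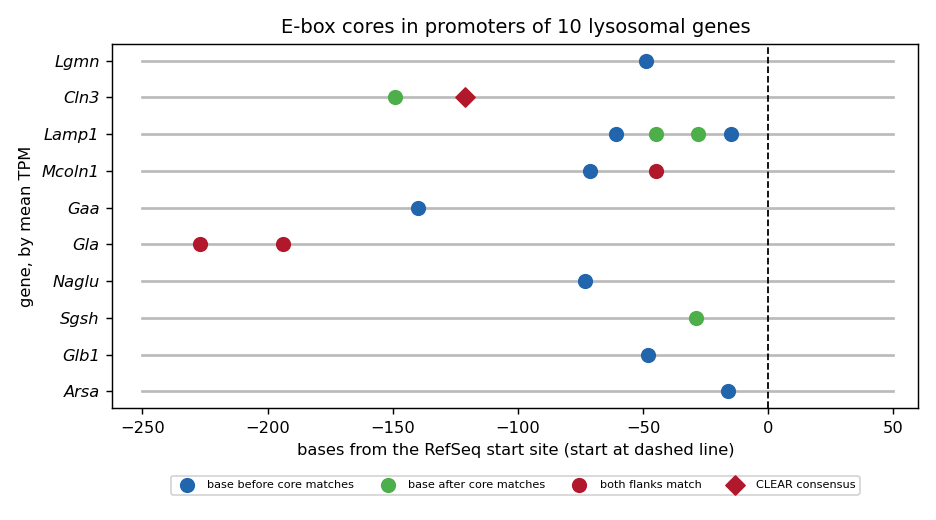
Position of each E-box core (points, first base of the core) in bases from the RefSeq start site in the promoter windows of 10 lysosomal genes, with genes ordered from high to low mean TPM and grey lines marking the window from 250 bases before to 50 after the start. Colour gives the flank that matches the CLEAR motif and the diamond its full letters. Lamp1 has 4 cores within 61 bases of the start, and the only diamond is in Cln3.

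Of the factors that bind this motif, all 4 members of the TFEB family were detected on chromatin. Mitf was at 45.8 ± 8.40 TPM, Tfec at 37.0 ± 1.38, Tfe3 at 36.4 ± 4.21 and Tfeb at 22.8 ± 2.78 (TPM is the deposited abundance, scaled to transcript length and to a fixed sum per table; here and below ± is the SD over 3 libraries). The value for Tfeb depended on the quantification, with 88.0 TPM in the tables made straight from the reads. RNA on chromatin does not show how much of these proteins was in the nucleus.

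Expected counts on genes, the fractional read counts of the deposited gene tables, summed to 13538605, 19949204 and 18224466 in replicates 1, 2 and 3. Labelled RNA input was 1 µg, 250 ng and 500 ng in the same order, so each amount stands for 1 library. All 8 macrophage markers listed (Adgre1, Csf1r, Cd14, Fcgr1, Itgam, Mertk, Lyz2 and Cd68) were detected, with a summed level of 716 to 975 TPM. Summed levels were 20.2 to 22.9 TPM for 8 osteoclast markers (2 detected, Nfatc1 and Atp6v0d2, with Ocstamp at 0), and 8.38 to 14.5 TPM for 8 dendritic cell markers (2 detected, Batf3 and Zbtb46, with Cd209a at 0). None of 8 neutrophil, 8 fibroblast or 8 T and B cell markers was detected, with sums of 0.58 to 0.72, 0.04 to 2.15 and 0.13 to 1.03 TPM. S100a8, S100a9, Ltf, Elane, Retnlg, Cd3g and Cd3e were at 0 in every library. The read-based tables gave more marker signal, with 1 of 8 neutrophil, 0 of 8 fibroblast, 2 of 8 T and B cell, 4 of 8 osteoclast and 3 of 8 dendritic cell markers detected. Cd3d averaged 13.7 TPM there, Ocstamp 3.34, Cd8a 2.55 and Mpo 1.90. The sums there were 3.23 to 5.45 TPM for the neutrophil, 15.9 to 20.2 for the T and B cell and 879 to 1187 for the macrophage markers. The lysosomal genes themselves are expressed in nearly all cell types. In bulk RNA, fewer cells of a type and less RNA per cell cannot be told apart.

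Nearly all of the lysosomal genes were present on chromatin, and as a group they stood well above the typical gene. Detection was set at 1 TPM or more in all libraries, which 31 of the 32 reached, all but Acp5, against 45.6% of protein-coding genes. The median log2(TPM + 0.1) of the 32 genes was 5.34, 5.62 and 5.70 in replicates 1, 2 and 3, or 5.55 ± 0.19. The same median was -0.43 ± 0.13 over all protein-coding genes and 3.60 ± 0.11 over those that were detected. In all 3 libraries the lysosomal median was the higher one. By mean TPM, 6 of the genes stood at 100 or more, 19 from 10 to 100, 6 from 1 to 10 and Acp5 under 1, and 14 ranked among the top 1000 protein-coding genes. These counts are a description of a list that was assembled by function, with no test.

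The 32 genes held 0.904% ± 0.0556 of the TPM of protein-coding genes. Of their own sum, Psap took 28.6% ± 1.99, and Psap and Grn together took 42.7% ± 1.63. The order of levels was stable between libraries, with Pearson's r of log2(TPM + 0.1) over the 32 genes of 0.994, 0.987 and 0.993 for the library pairs 1 and 2, 1 and 3, and 2 and 3. These correlations run across genes that share a library and are given as a description. When the genes were ordered by mean TPM, 11 of the 31 neighbouring pairs had ranges over libraries that did not overlap. The gaps lay above and below Grn, below Cln3, Lipa, Asah1 and Neu1, and at each step from Glb1 down to Acp5 through Arsa, Ids, Arsb and Smpd1. The other 20 neighbouring pairs overlapped and their order is not settled by these libraries.

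**Figure D2:**
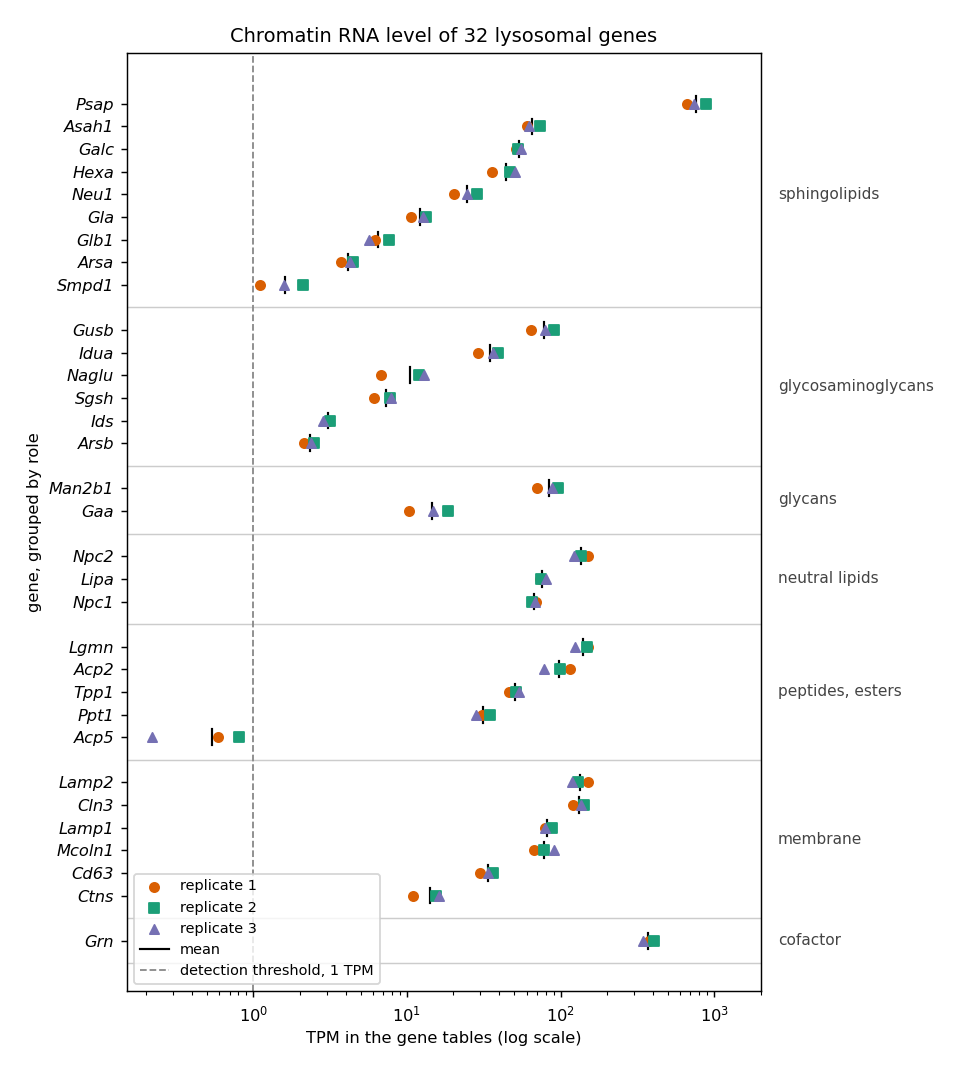
TPM in the gene tables (log axis) of 32 lysosomal genes in each of 3 libraries (points) with the mean (bar), grouped by role and ordered by mean within a role. Psap and Grn stand highest, sphingolipid hydrolases spread from Asah1 at 65.4 down to Smpd1 at 1.60, and Acp5 lies left of the detection threshold of 1 TPM in every library.

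Breakdown of sphingolipids and gangliosides, membrane lipids that are abundant in myelin and on the cell surface, is served by 9 of the genes, whose levels ran from the highest of the group to among the lowest. Psap (ENSMUSG00000004207.14, mm10 chromosome 10, 60277627 to 60302597, plus strand) encodes prosaposin, the precursor of the saposins that present sphingolipids to their hydrolases. It was at 669, 879 and 742 TPM in replicates 1, 2 and 3, with a mean of 763 ± 107, and ranked 16th among protein-coding genes. Replicate 1 was the lowest library and replicate 2 the highest, and no library of another gene came near the lowest of Psap among the 32. The hydrolases of this pathway were all far lower. Asah1, acid ceramidase, was at 65.4 ± 7.06 TPM and Galc, which removes galactose from galactosylceramide, at 53.4 ± 2.02. Hexa, the alpha subunit of beta-hexosaminidase, was at 44.1 ± 7.62 and the sialidase Neu1 at 24.4 ± 4.13.

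The remaining sphingolipid hydrolases were lower than these in the gene tables, where detected protein-coding genes had a median of mean TPM of 12.1. Gla, alpha-galactosidase A, was at 10.6, 13.3 and 12.8 TPM, with a mean of 12.2 ± 1.41. Glb1, the lysosomal beta-galactosidase (ENSMUSG00000045594.10, mm10 chromosome 9, 114401076 to 114474898, plus strand), was at 6.18, 7.65 and 5.65 TPM (6.49 ± 1.04). Arsa, arylsulfatase A, which acts on sulfatide, was at 3.74, 4.43 and 4.27 TPM (4.15 ± 0.361). Replicate 1 was the lowest library for Gla and Arsa and replicate 3 for Glb1. Smpd1, acid sphingomyelinase, stood at 1.10, 2.10 and 1.59 TPM (1.60 ± 0.500), close to the threshold of detection. That level rests on 32, 76 and 56 expected counts, so counting error is a larger part of its spread than for the genes above.

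Glycosaminoglycan breakdown, the stepwise removal of sulfates and sugars from heparan and dermatan sulfate, had the lowest median of the roles with more than 1 gene, at 8.88 TPM over 6 genes. Gusb, beta-glucuronidase, was the highest at 77.9 ± 13.1 TPM, followed by Idua, alpha-L-iduronidase, at 34.8 ± 5.16. Naglu, which removes N-acetylglucosamine from heparan sulfate, was at 6.76, 11.9 and 12.9 TPM (10.5 ± 3.27). The sulfatases of this pathway were all low. Sgsh, the heparan N-sulfatase, was at 7.25 ± 0.962 TPM. Ids, iduronate sulfatase, was at 3.12, 3.17 and 2.83 TPM (3.04 ± 0.184), and Arsb, arylsulfatase B, at 2.15, 2.47 and 2.38 (2.33 ± 0.165). Their libraries differed little, but Ids and Arsb did not overlap with each other. Together with Arsa, every one of the 4 sulfatase genes stood under 10 TPM. Sumf1, whose product activates all sulfatases, was at 27.1 ± 1.30 TPM.

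Gaa and Man2b1 digest glycogen and the glycans of glycoproteins. Man2b1, lysosomal alpha-mannosidase (ENSMUSG00000005142.10, mm10 chromosome 8, 85083270 to 85098282, plus strand), was at 70.6, 95.6 and 87.4 TPM (84.6 ± 12.8). Gaa, acid alpha-glucosidase, was at 10.3, 18.5 and 14.8 TPM (14.5 ± 4.14). Replicate 1 was the lowest library for both, by a wide margin for Gaa.

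The genes for neutral lipids and cholesterol were evenly high. Npc2 (ENSMUSG00000021242.9, mm10 chromosome 12, 84754562 to 84773152, minus strand), the soluble protein that takes up cholesterol inside the lysosome, was at 151, 136 and 122 TPM (136 ± 14.6). Npc1, the membrane protein that receives cholesterol from it, was at 67.2 ± 2.28. Lipa, lysosomal acid lipase, which frees that cholesterol from its esters, was at 76.0 ± 3.57. In the gene tables Lipa and Npc1 were among the steadiest of the group, with coefficients of variation of 4.69% and 3.40%. Their ranges did not overlap there. In the read-based tables the ranges overlapped, with Lipa at 97.3 ± 6.70 TPM and Npc1 less steady at 94.1 ± 13.1.

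Peptidases, a thioesterase and phosphatases ranged from high levels to below detection. Lgmn (ENSMUSG00000021190.14, mm10 chromosome 12, 102394084 to 102439813, minus strand), the asparagine-specific peptidase legumain, was at 150, 149 and 123 TPM (141 ± 15). Acp2 (ENSMUSG00000002103.15, mm10 chromosome 2, 91202885 to 91214098, plus strand), lysosomal acid phosphatase, was at 115, 98.6 and 78.3 TPM (97.2 ± 18.3). In both genes replicate 3 was the lowest library. Tpp1, tripeptidyl peptidase, was at 50.5 ± 4.0 TPM and Ppt1, palmitoyl-protein thioesterase, at 31.2 ± 3.37. Acp5 (ENSMUSG00000001348.15, mm10 chromosome 9, 22126727 to 22135711, minus strand), the tartrate-resistant acid phosphatase used as a marker of osteoclasts, was at 0.59, 0.81 and 0.22 TPM (0.54 ± 0.298). It rested on 9, 15 and 4 expected counts and ranked 11279th among protein-coding genes, the only one of the 32 below detection.

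By gene-table means the membrane proteins had the highest median among roles with more than 1 gene, at 80.2 TPM over 6 genes. The median of the neutral lipid and cholesterol genes was close, at 76.0 TPM, and was the higher one in replicate 1. In the read-based tables the latter was again higher. There Lipa, the middle gene of that role, was at 97.3 TPM, above the middle pair of the membrane proteins, Mcoln1 (81.6) and Lamp1 (80.7). Lamp2 (ENSMUSG00000016534.15, mm10 chromosome X, 38401357 to 38456454, minus strand), a glycoprotein of the lysosomal membrane that also serves autophagy, was at 150, 130 and 119 TPM (133 ± 16.0). Cln3 (ENSMUSG00000030720.16, mm10 chromosome 7, 126571207 to 126585817, minus strand), the membrane protein lost in juvenile Batten disease, was at 120, 142 and 135 TPM (132 ± 11.6). Lamp1 was at 81.8 ± 5.33 and Mcoln1, the calcium-conducting mucolipin channel, at 78.5 ± 11.9. The libraries of Lamp2 and Cln3 overlapped, as did those of Lamp1 and Mcoln1. The tetraspanin Cd63 was at 33.5 ± 3.26 TPM and Ctns, which exports cystine, at 14.1 ± 2.81. Cd63 has a transcribed copy, Cd63-ps, which matches it at 98.0% over 858 bases and stood at 1.67 TPM, so some reads may be shared between them. Grn (ENSMUSG00000034708.11, mm10 chromosome 11, 102430315 to 102437048, plus strand), progranulin, a secreted glycoprotein that is cut into granulins inside lysosomes and binds prosaposin, was at 374, 403 and 343 TPM (373 ± 30.1). It was the second highest of the 32 and ranked 54th among protein-coding genes.

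The other genes of the lysosome followed the same picture at a lower level. Of 40 listed, 35 were detected, and their median log2(TPM + 0.1) was 4.13 ± 0.17. Among the highest were Atp13a2, a lysosomal polyamine transporter, at 244 ± 39.6 TPM, Slc11a1, a metal transporter of phagocytes, at 160 ± 29.4, and Laptm5 at 159 ± 25.1. Mcoln2, a relative of Mcoln1, was at 133 ± 23.1 TPM. Lamp3 was the lowest at 0.0133 TPM.

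Among the 32 genes, 5 lie on chromosome 11, 4 on chromosome 8 and no more than 3 on any other chromosome. The closest pair, Gaa and Sgsh on chromosome 11, is 58.0 kb apart and stood at 14.5 and 7.25 TPM, and both carry the E-box core shown above. Smpd1 and Tpp1 on chromosome 7 are 186 kb apart and stood at 1.60 and 50.5 TPM. The treatment of strand in the counting is not given in the sources used here, and 14 of the genes overlap another annotated gene, 9 of them a protein-coding gene on the opposite strand. In 7 the other gene reached 5 TPM. Idua lies across Dgkq (26.4 TPM) and Slc26a1 (8.07 TPM), Npc1 meets Rmc1 (61.0 TPM), Cln3 meets Apobr (54.4 TPM) and Ppt1 meets Cap1 (84.6 TPM). Lamp1 overlaps Grtp1 (20.7 TPM), Acp2 overlaps Ddb2 (6.13 TPM) and Glb1 shares its strand with Tmppe (8.75 TPM). Below that mark, Arsa at 4.15 TPM overlaps the antisense gene C230037L18Rik, at the similar level of 4.13 TPM, over 1190 bases. Reads in these stretches may be counted for either gene, and their part in the levels was not tested.

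A second quantification made straight from the reads gave a similar order of genes. Its mean TPM correlated with that of the gene tables at r = 0.972 on the log2 scale over the 32 genes, given as a description across genes. The read-based mean was the higher one in 25 of 32 lysosomal genes (78.1%). With a mean TPM of at least 1 it was higher in 24 of 31 lysosomal genes (77.4%), against 81.0% of 10522 protein-coding genes. The median log2 difference, read-based minus gene table, was 0.24 over the 31 lysosomal genes with a mean TPM of at least 1 and 0.39 over 10522 such protein-coding genes. Of the 31, Gla and Gaa were more than 2 times higher in the read-based tables (6.45%), against 17.7% of protein-coding genes at a mean of 1 TPM or more. Acp5, below that level, was the third such gene. Gla was at 39.2 TPM in the read-based tables and 12.2 in the gene tables, Gaa at 34.4 and 14.5, and Acp5 at 2.50 and 0.54.

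In each of these the larger part of the excess lay on a short annotated transcript. Gla-202, of 337 bases, had 25.2 TPM in the read-based tables and 1.59 in the alignment-based transcript tables that accompany the gene tables, whereas the main transcript Gla-201 had 14.1 and 10.6. Gaa-206, of 241 bases, had 11.6 and 0 TPM, and Acp5-205, of 399 bases, had 1.96 and 0. The same held for Acp2-203, of 233 bases, with 82.6 and 0 TPM. Asah1-202, a transcript of 764 bases annotated for nonsense-mediated decay, had 61.4 and 3.82. In these 5 genes most of the difference between the quantifications lay on 1 transcript of fewer than 1000 bases.

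**Figure D3:**
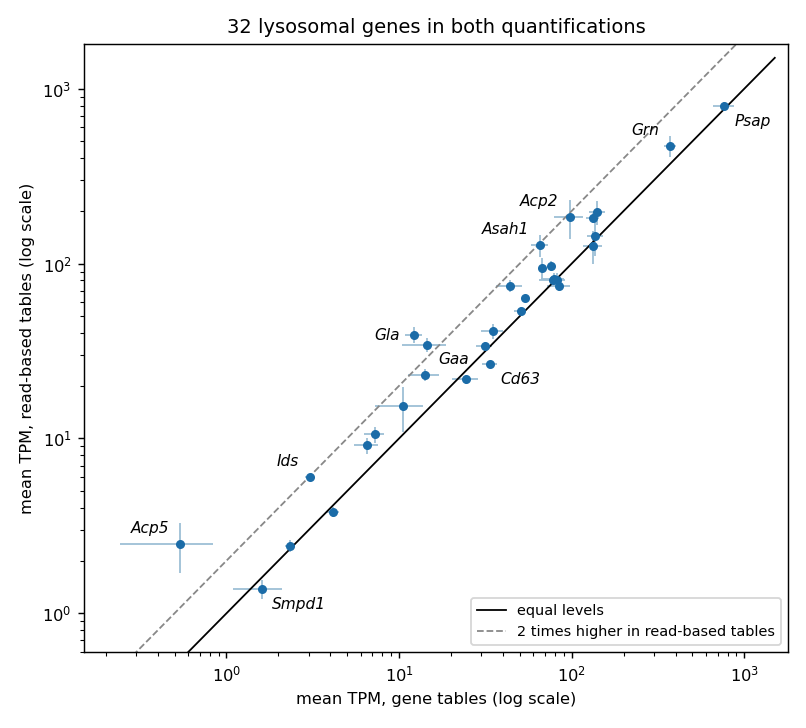
Mean TPM of 32 lysosomal genes in the read-based tables (vertical log axis) against the gene tables (horizontal log axis), with SD over 3 libraries as bars. In 25 of the 32 genes the point lies above the line of equality, and Gla, Gaa and Acp5 lie above the dashed line of 2 times.

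For Psap the gene level was shared by both quantifications, at 792 ± 46.4 TPM in the read-based tables and 763 ± 107 in the gene tables, but the split over its 5 coding transcripts was not. Psap-202 had 5.84 TPM in the read-based tables and 545 in the alignment-based transcript tables, Psap-204 had 302 and 53.6, and Psap-201 had 209 and 16.1. These transcripts are 2646 to 2657 bases long and differ by small stretches. No statement on the isoforms of prosaposin can rest on these tables. Lamp2 was steadier. Its 3 coding transcripts share their start and end at different last exons, which encode the alternative membrane tails of the protein. Lamp2-202 was at 38.4 TPM in the read-based tables and 47.9 in the alignment-based tables, Lamp2-201 at 25.1 and 18.7, and Lamp2-203 at 10.5 and 7.84, the same order in both.

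Because the RNA was taken from chromatin, transcripts annotated as retaining an intron were examined. Of 175 annotated transcripts of the 32 genes, 50 belong to that class, and they come from 21 of the genes. The class held 30.6% ± 1.41 of the summed TPM of the 32 genes, against 37.1% ± 0.559 over all protein-coding genes. Psap has no such transcript and weighs heavily in that sum, since without it the share was 42.9% ± 1.18, a value computed after the data had been seen. Per gene, the median share over the 21 genes was 43.4% ± 0.676, against 45.6% ± 0.711 over 6342 detected protein-coding genes with such a transcript. More than 50% of the TPM lay on the class in 6 of the 21 genes, where 42.2% of those protein-coding genes passed the same mark. The 11 genes without such a transcript (Psap, Hexa, Ppt1, Gaa, Gla, Naglu, Sgsh, Glb1, Ids, Arsb and Acp5) could not show this class at all.

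Within the group, the share differed strongly from gene to gene. Neu1 had the highest, at 95.3%, 91.5% and 94.3% in replicates 1, 2 and 3 (93.7% ± 1.96). Tpp1 followed at 79.4% ± 0.216 and Npc2 at 78.6% ± 2.58. Arsa was at 58.5% ± 9.18, Grn at 57.3% ± 3.62 and Asah1 at 56.3% ± 4.47. In these tables Lamp2 had the lowest of the 21, at 19.6%, 19.2% and 18.5% (19.1% ± 0.578). No library of Neu1 came near any library of Lamp2. In the read-based tables the shares were 97.4% for Neu1, 79.8% for Tpp1, 84.4% for Npc2 and 16.4% for Lamp2, and the lowest was Acp2 at 14.6%, against 29.7% in the alignment-based tables. Smpd1, a low gene, moved from library to library at 20.0%, 38.6% and 47.2%. Asah1 was the exception among the 6, with 28.9% in the read-based tables and 56.3% in the alignment-based tables. Among the genes of highest level, Lgmn had a share of 31.3% ± 3.61, Cln3 of 32.2% ± 3.27, Acp2 of 29.7% ± 1.53 and Man2b1 of 47.9% ± 2.92. Over the 21 genes, share and mean TPM had a Spearman's rho of -0.14, given as a description across genes.

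**Figure D4:**
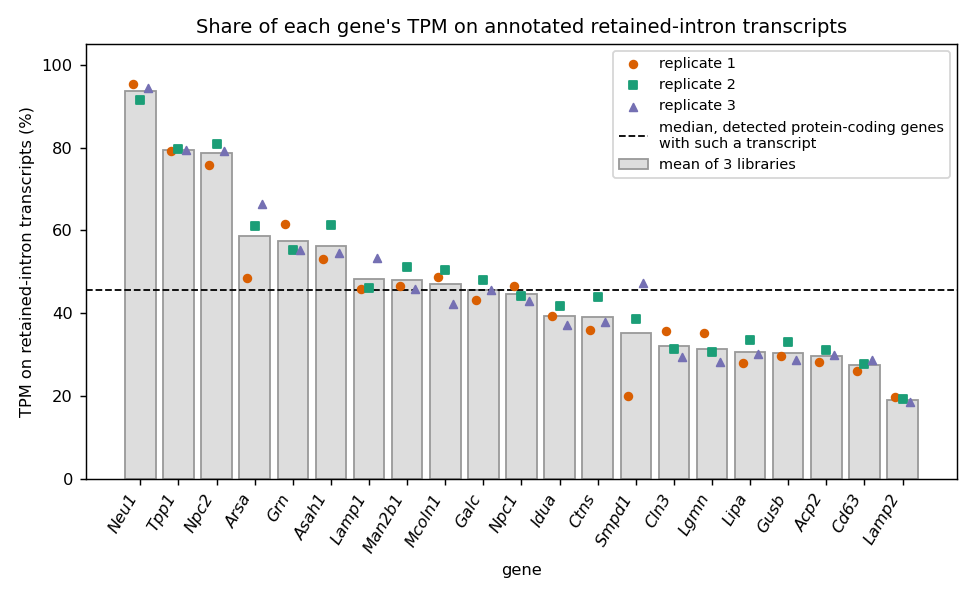
Share of each gene's TPM on transcripts annotated as retaining an intron (percent, bars for the mean and points for 3 libraries) in the 21 lysosomal genes that have such a transcript. The dashed line is the median of 45.6% over detected protein-coding genes with such a transcript, and Neu1, Tpp1 and Npc2 stand far above it while Lamp2 stands at 19.1%.

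In the alignment-based tables the most abundant transcript was of this class in 7 of the 32 genes (Neu1, Npc2, Tpp1, Asah1, Idua, Arsa and Cln3). In 23 it was coding, and in Gusb and Arsb it was annotated for nonsense-mediated decay or as a processed transcript. The same count over all protein-coding genes was not made. In the read-based tables Asah1-202 (61.4 TPM) and the processed transcript Cln3-207 (40.2) led in Asah1 and Cln3. There the retained-intron transcripts Grn-208 (102) and Mcoln1-205 (22.3) led in Grn and Mcoln1. Of the 50 retained-intron transcripts, 25 hold at least 1 whole intron of the reference coding transcript, and these lie in 17 genes. In Neu1 the finding turned on a single intron. Neu1-202 was at 19.2, 24.6 and 23.3 TPM (22.4 ± 2.83) and keeps intron 3 of 5, 1174 bases at mm10 chromosome 17, 34932829 to 34934002, while the coding Neu1-201 was at 1.59 ± 0.746. In Tpp1, Tpp1-206 at 24.5 ± 3.99 TPM keeps intron 3 of 12, of 1259 bases, while the coding Tpp1-201 was at 9.42 ± 0.730. In Grn, Grn-207 at 77.2 ± 18.1 TPM keeps intron 7 of 12, of 193 bases, and the coding Grn-201 was at 106 ± 14.6. Npc2 was of another kind. Npc2-203 and Npc2-202, at 58.4 ± 1.89 and 48.7 ± 7.63 TPM, cover 1648 and 491 of the 4384 bases of intron 2 and keep no whole intron.

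The ends of whole introns kept in Neu1, Tpp1, Grn, Arsa and Asah1, 5 of the 6 genes past 50%, are shown because these are the splice sites that the transcripts leave unused. The letters come from GENCODE M21 transcript sequences on mm10, 5′ to 3′ on the strand of the gene, with 10 bases of exon and 20 of intron, and capitals mark the first or last 2 bases of the intron. Neu1 and Grn lie on the plus strand, and Tpp1, Arsa and Asah1 on the minus strand.

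Neu1 intron 3, 5′ end, chr17:34932819-34932848: aggcattcagGTttcaccctgtggatagga
Neu1 intron 3, 3′ end, chr17:34933983-34934012: ccacttcctcttcttaacAGaaacagcggg
Tpp1 intron 3, 5′ end, chr7:105751570-105751599: cctcaatatgGTgcctatcagttggggcag
Tpp1 intron 3, 3′ end, chr7:105750321-105750350: cctcttctgaatccctgcAGgaaagtacct
Grn intron 7, 5′ end, chr11:102434500-102434529: aatgcccaatGTgagtgaatggctggattc
Grn intron 7, 3′ end, chr11:102434683-102434712: ttatacttgtcccaacctAGgccatctgct
Arsa intron 4, 5′ end, chr15:89474767-89474796: cgcttcccacGTgagtgaccctggccccgc
Arsa intron 4, 3′ end, chr15:89474700-89474729: actccagtctctgcccccAGcacactcact
Asah1 intron 11, 5′ end, chr8:41343710-41343739: atgtctatgaGTaagtatccttgataaagg
Asah1 intron 11, 3′ end, chr8:41343633-41343662: atctctctctttatatctAGacttgatcct

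All 5 introns begin with GT and end with AG, the usual pair. Those of Arsa (77 bases) and Asah1 (87 bases) are far shorter than those of Neu1 and Tpp1. The transcript of Asah1 that keeps intron 11, Asah1-204, was at 9.56 ± 0.758 TPM, below Asah1-203 at 27.5 ± 7.36, which covers 413 of the 2269 bases of intron 5. Annotated transcripts of this class also collect reads of RNA whose splicing is unfinished, and retained and not yet spliced introns cannot be told apart in these tables.

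Between the replicates no lysosomal gene was called as varying more than genes of its level. An intercept-only negative binomial model with a trended dispersion (edgeR goodness of fit) called 166 of 14789 genes at an adjusted p under 0.05 (1.12%) and 0 of the 31 lysosomal genes tested, Acp5 having too few counts to be tested. At an unadjusted p under 0.05 it named 1 of 31, Naglu, against 6.08% of all genes tested. A gene that was not called is not shown to be equal between the libraries, and modest differences can be missed with 3 libraries. DESeq2's dispersion outliers, 61 genes, held 0 of the lysosomal genes, and edgeR on the read-based counts called 273 genes and 0 of these. Naglu was at 3.89, 4.50 and 4.74 log2 CPM (log2 of counts scaled to library size) in replicates 1, 2 and 3, with an edgeR p of 0.0334 and an adjusted p of 0.695. The median SD of log2 CPM was 0.16 over the 31 genes and 0.19 over all genes tested, or 0.18 over protein-coding ones.

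The small differences that existed leaned to replicate 1. It was the lowest library for 18 of the 31 lysosomal genes, against 39.8% of all genes tested and 44.3% of protein-coding ones. Replicate 3 was the highest for 17, against 32.4% and 34.6%. The median deviation from a gene's mean was -0.10, 0.02 and 0.09 log2 in replicates 1, 2 and 3 over the lysosomal genes, -0.032, 0.013 and 0.013 over the protein-coding genes tested, and -0.0066, 0.0022 and 0.0019 over all genes tested. Replicate 1 was lowest for the same number of genes, 18, when libraries were scaled by DESeq2's size factors. Set against the mean of replicates 2 and 3, replicate 1 was lower by the most in Naglu (log2 difference -0.73), Smpd1 (-0.64), Gaa (-0.58) and Sgsh (-0.56). All 4 lay below the median level of the lysosomal genes. It was higher by the most in Acp2 (0.46), Lamp2 (0.32) and Npc2 (0.30). Replicate 1 was also the library with the fewest counts, the most input RNA and 1.39% of expected counts on entries that name no gene, against 0.288% and 0.283% in replicates 2 and 3. The part of these in the leaning was not tested.

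**Figure D5:**
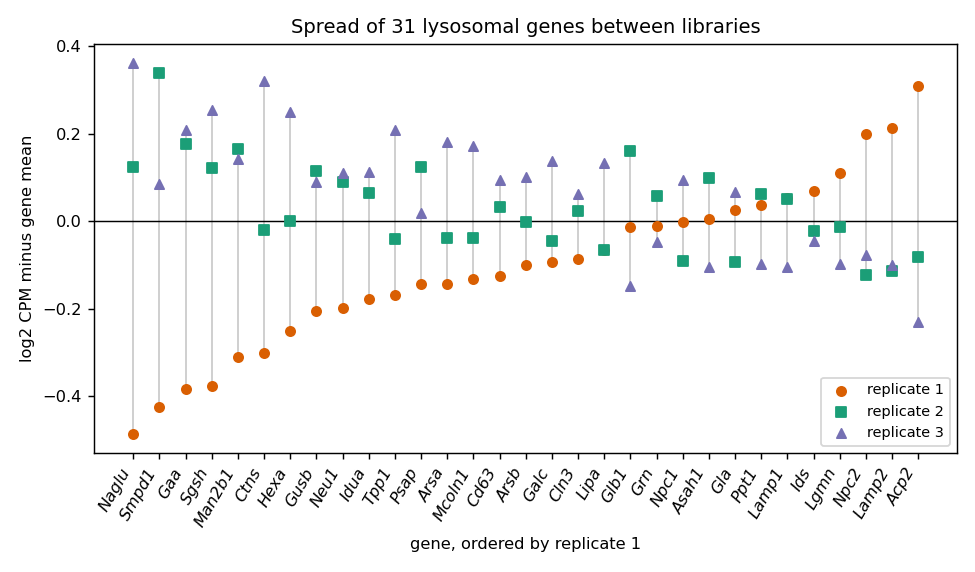
Deviation of log2 CPM from the gene's mean over 3 libraries for the 31 lysosomal genes tested, ordered by replicate 1, with grey lines joining the lowest and highest library. Replicate 1 lies lowest in 18 genes, from Naglu at the left, and highest in 6, with Acp2, Lamp2 and Npc2 at the right.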

How the data were processed

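Chromatin-fraction RNA was sequenced in 3 libraries of 1 group. Per the file headers and the notes beside them, reads were aligned to the transcriptome of mm10 (GENCODE M21), and the authors deposited the resulting expected counts and TPM per gene and per transcript. A further deposited set of transcript tables holds estimated counts and TPM obtained from the reads directly, called read-based here. Which programs were used and how strand was treated is not given in the sources used here. TPM has a fixed sum, so abundant short RNAs lower all other values.

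The members and the gene lists were chosen with earlier results of these data known. The genes were found by symbol in the read-based tables and joined by gene identifier. Read-based values were summed per gene. The text gives full values for the members at the 8 highest and 6 lowest mean TPM, those called in the test, those of highest and lowest retained-intron share and those more than 2 times apart between tables, and means for the rest. A retained-intron share is the TPM of a gene on transcripts that GENCODE gives this class. Expected counts were rounded, kept by filterByExpr and scaled by TMM in edgeR 4.0.16 (R 4.3.3). An intercept-only model with trended dispersion was fitted to all genes, and each deviance was set against a chi-square distribution with Benjamini-Hochberg adjustment, after a test on simulated data. Values in log2 CPM used a prior count of 2. Entries that name no gene were left out. The values of some list genes are not reported here. Depth was 13538605 to 19949204 expected counts on genes, and SDs rest on 3 libraries. A search of proteins for sorting signals that had been planned was not made. Alternatives used DESeq2 1.42.0, other thresholds, pseudocounts, scalings and tables, and each replicate left out. Python 3.11.15, numpy 2.4.6 and pandas 2.3.3 were used.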

Additional observations from a re-analysis of the deposited data

How the results depend on the processing

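The number of lysosomal genes detected was 27 at a threshold of 5 TPM and 32 both at 0.1 TPM and in the read-based tables, and the median log2 level was 5.58 with a pseudocount of 1 TPM. That level moved by more than its SD to 5.87 in the read-based tables, to 7.32 with TPM rescaled to protein-coding nuclear genes and to 4.95 as a mean over genes, and ran from 5.48 to 5.66 with 1 replicate left out. The share of protein-coding TPM was 0.800% in the read-based tables and 0.775% by expected counts, and 0.886% to 0.936% with 1 replicate left out. The retained-intron share was 22.5% by expected counts, 43.4% as a median over genes and 42.9% without Psap (an alternative added after seeing the data), 29.6% in the read-based tables, and 29.8% to 31.1% with 1 replicate left out. Why these values moved was not tested beyond what each measure counts. Genes varying between replicates numbered 273 in the read-based tables, 61 as DESeq2 dispersion outliers, 221 without a filter, 122 among protein-coding nuclear genes, 166 with DESeq2 size factors and 56 to 76 with 1 replicate left out, where fewer samples are fitted, and 0 of these were lysosomal under each alternative named. The read-based mean of 19 of the 32 genes lay more than 1 SD from the gene-table mean. The same count over all protein-coding genes was not made. With a replicate left out 0 of 96 means did, which leaving out 1 of 3 libraries cannot produce. No paired analysis was possible because all libraries belong to 1 group. Depth limits Acp5 and Smpd1 most, at 4 to 15 and 32 to 76 expected counts.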
